A study of Mus musculus with 4 samples.

Results

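The Ly6 genes of mouse chromosome 15 encode small surface antigens, and 7 of them (Ly6a, Ly6c1, Ly6c2, Ly6d, Ly6e, Ly6i and Ly6k) were followed here among the 23552 genes of a deposited expression table. The members were selected by symbol through their Ensembl identifiers, a rule that uses no expression value, although the family was picked with earlier results of these data known, and all 7 were found. Expression was measured by RNA-Seq in leukemic c-Kit+ cells that were enriched from the bone marrow of C57BL/6 mice moribund with MLL-AF9-induced acute myeloid leukemia (AML). The control group comprised 2 libraries (replicates 3 and 4) of leukemia carrying control-eGFP overexpression, and the SUV-OE group comprised 2 libraries (replicates 2 and 3) of leukemia with Suv39h1-eGFP overexpression. Both groups share the MLL-AF9 oncogene, an eGFP vector, sorting for eGFP and transplantation into irradiated recipients, and all 4 libraries carry the label of RNA-seq batch 2. The vectors were delivered by lentivirus to leukemia cells already passaged through mice, and how many independent transformations they represent is not given in the sources used here. The methods state that the mice of the study were females aged 8 weeks. Nothing in the labels says that the libraries came from separate mice, so p-values measure only the spread between these libraries, which may be technical. In RNA from bulk cells, fewer cells of a type and less RNA per cell cannot be told apart.

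Ly6 proteins carry a compact cysteine-rich fold, and most are held on the outer face of the cell by a glycosylphosphatidylinositol (GPI) anchor. In blood formation they serve mainly as markers. Ly6a is Sca-1, which is used together with c-Kit to isolate hematopoietic stem and progenitor cells, the Ly6C antigen encoded by Ly6c1 and Ly6c2 marks monocytes and some lymphocytes, Ly6d marks progenitors committed to the B-lymphoid lineage, and Ly6e is an interferon-inducible gene. Suv39h1 deposits H3K9me3, a histone mark of silent chromatin.

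The members lay within 349.915 kb of chromosome 15 (74762056 to 75111970 in mm10), and 6 of the 7 are on the minus strand, Ly6e being the exception. Their coding sequences, taken from the longest coding transcript of each gene in GENCODE M21, fell into a close and a distant set. Ly6c1 and Ly6c2 were 97.7% identical, with 9 mismatches and no gap over 396 aligned bases. Ly6a was 86.4% identical to Ly6i and 81.7% identical to Ly6c2. Ly6a was only 51.5% identical to Ly6d, 53.1% to Ly6e and 47.7% to Ly6k. The transcript was chosen after a first alignment had been seen. With the longest annotated coding sequence of each gene instead, the identity of Ly6c1 and Ly6c2 was 81.4%, because another Ly6c1 transcript is annotated with a reading frame of 444 bases. The coding sequences of Ly6c1 and Ly6c2 are shown because this pair is the closest in sequence while its levels, given further on, lay far apart. They are read 5′ to 3′ from GENCODE M21, spliced, from the minus strand, over bases 1 to 270 counted from the start codon, and capitals mark the bases that differ, of which this stretch holds 7.
Ly6c1: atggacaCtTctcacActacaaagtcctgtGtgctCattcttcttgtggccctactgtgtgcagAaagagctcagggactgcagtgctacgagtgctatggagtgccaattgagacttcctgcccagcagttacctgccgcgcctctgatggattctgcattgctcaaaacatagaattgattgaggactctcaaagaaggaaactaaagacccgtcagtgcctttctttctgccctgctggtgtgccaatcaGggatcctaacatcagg
Ly6c2: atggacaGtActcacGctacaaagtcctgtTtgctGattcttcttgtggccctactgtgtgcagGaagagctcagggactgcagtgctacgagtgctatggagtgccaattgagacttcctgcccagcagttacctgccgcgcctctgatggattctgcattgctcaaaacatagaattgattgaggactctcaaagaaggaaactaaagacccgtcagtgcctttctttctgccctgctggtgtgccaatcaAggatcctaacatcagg

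Reads that fit more than 1 gene bear on such a pair. Of all stretches of 75 bases in the annotated transcripts of Ly6c1, 19.1% were also found in another gene (Ly6c2 or Ly6a). The share was 9.46% for Ly6c2, 6.33% for Ly6a and 0.519% for Ly6i, and no such stretch was shared by Ly6d, Ly6e or Ly6k. With stretches of 150 bases, the shares were 2.29% for Ly6c1 and 1.43% for Ly6c2, and 0% for the other 5 members. How the authors counted reads with several alignments is not given in the sources used here, so the low value of Ly6c1 is uncertain in that respect. The methods state paired reads of 150 bases, at which Ly6a and Ly6i share no stretch with another gene.

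Upstream of their start sites the pair was less alike. RefSeq promoter windows (GRCm38.p6, 250 bases before to 50 after a start site) were at hand for 2 of the 7 members, Ly6c1 and Ly6c2, with 4 windows in all. The 250 bases before the most upstream start site were 57.8% identical between both genes over 284 aligned columns, of which 68 were gaps, and 75.9% identical over the aligned bases alone. They are shown to set the upstream sequence of the most abundant member beside that of its low relative, with the PU.1 box and the TATA box in capitals. The Ly6c1 sequence is chr15:75048838-75049087 and the Ly6c2 sequence chr15:75111972-75112221, both on the minus strand.
Ly6c1: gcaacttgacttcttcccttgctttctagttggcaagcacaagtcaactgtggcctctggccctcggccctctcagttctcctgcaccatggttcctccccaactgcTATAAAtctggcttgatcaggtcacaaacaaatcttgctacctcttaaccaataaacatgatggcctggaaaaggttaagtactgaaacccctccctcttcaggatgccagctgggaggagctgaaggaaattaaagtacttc
Ly6c2: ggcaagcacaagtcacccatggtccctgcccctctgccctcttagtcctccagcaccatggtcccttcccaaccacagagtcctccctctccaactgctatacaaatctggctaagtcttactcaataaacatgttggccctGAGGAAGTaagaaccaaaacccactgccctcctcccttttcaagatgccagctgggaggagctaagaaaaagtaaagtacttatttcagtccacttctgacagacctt

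In total, 13 motifs were searched on both strands of the 4 windows, and their shares were counted over all 32851 RefSeq windows of the same length. The PU.1 box GAGGAAGT was in both Ly6c2 windows, in the upper one at 108 bases before and 27 bases after the start, and in the downstream Ly6c1 window, while 3.20% of all windows held it. The Ly6c2 windows share 266 of their 300 bases and the Ly6c1 windows 126, so both Ly6c2 windows show the same sites and do not count separately. Its core GAGGAA, which overlaps it, was in all 4 windows and in 28.3% of all windows. The TATA box TATAAA and the CCAAT box CCAAT were each in 1 Ly6c1 window, against 13.6% and 37.4% of all windows. The TATAAA letters began at position -143 to the start of that window. The RUNX core TGTGGT was in both Ly6c2 windows, as 1 shared site, and in 16.8% of all windows. None of the 4 windows held the interferon-stimulated response element GAAANNGAA (8.56% of all windows) or the gamma-activated site TTCNNNGAA (8.30%). The C/EBP palindrome TTGCGCAA (0.183%) and its looser form TTGCNNAA (10.8%), the ETS palindrome TTTCCGGAA (0.237%) and the extended ETS site GGAAGTG (11.0%) were also without a match, as were the STAT palindrome TTCCNGGAA (1.15%) and the AP-1 site TGACTCA (5.20%). A match describes these letters and is not a bound site.

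The table holds FPKM values, that is fragments scaled to exon length and library size, so levels can be compared between genes. Reads recovered from the steps between the values ranged from 18840235 to 22161496 per library, and 3 reads on 1 kb of exon were worth an FPKM of 0.154 to 0.178, a floor that covers counting error only. Suv39h1 itself reached an FPKM of 75.3 and 81.2 with SUV-OE against 12.4 in both controls. Kit, which encodes the antigen used to enrich the cells, was at 20.4 and 19.2 in the controls against 28.6 and 25.4 with SUV-OE. The correlation across genes was 0.970 between the control libraries, 0.985 between the SUV-OE libraries, 0.953 between control replicate 3 and each SUV-OE library, and 0.964 and 0.966 between control replicate 4 and the SUV-OE libraries. Control replicate 4 had the highest FPKM sum, 414940 against 340958 to 373067 in the other 3 libraries. The members are therefore given without either control library as well.

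Group differences were tested with limma on log2(FPKM + 1) over the 13736 genes whose FPKM averaged 0.5 or more. Differentially expressed genes (DEGs) had a Benjamini-Hochberg adjusted p under 0.05 and a log2 fold change of 1 or more in either direction. Values on this scale understate the change of low genes. Ly6a, Ly6c2, Ly6d, Ly6e and Ly6k were tested, and Ly6c1 and Ly6i fell below the minimum. None of the 5 tested members was a DEG, where 0.815% of all tested genes were DEGs higher in SUV-OE and 0.408% were DEGs lower in SUV-OE. Ly6a and Ly6d had an unadjusted limma p under 0.05, as did 20.7% of all tested genes. The median log2 fold change was -0.07 over the 5 members and -0.02 over all tested genes. Limma-voom on the recovered reads, at a mean of at least 10 reads, called 0 of 4 members, where it called 4.7% of its 14313 genes as DEGs in either direction and 3.59% as higher in SUV-OE. At a mean of at least 5 reads it called 0 of 6 members and 3.99% of its 16111 genes. At these shares, no call among so few genes is no result about the members. An exact permutation test of 2 libraries against 2 cannot give a two-sided p below 0.333, so none is reported for single genes.

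**Figure D1:**
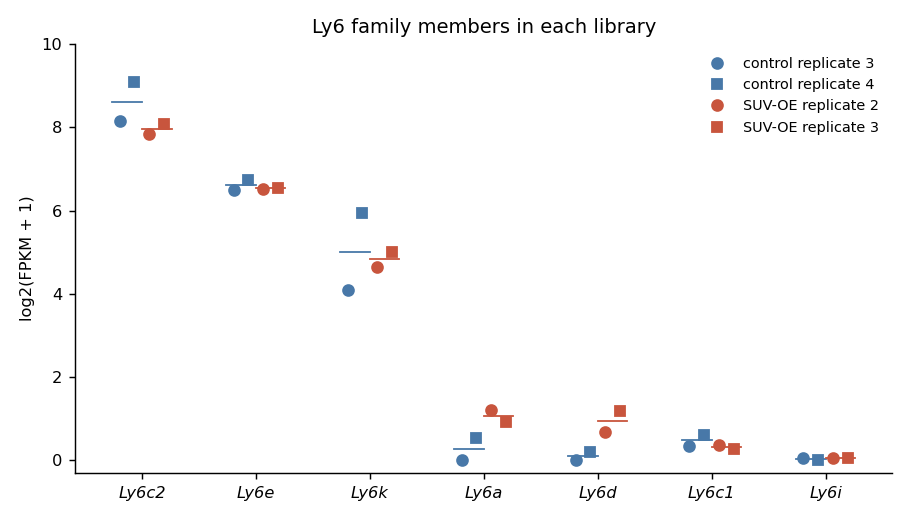
Level of the 7 Ly6 family members in each library, as log2(FPKM + 1) on the vertical axis, with blue for control, red for SUV-OE, 1 point per library and a line at the mean of each group. Ly6c2, Ly6e and Ly6k stand well above the other 4 members, and control replicate 4 is the highest library for these 3 genes.

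Ly6c2 (ENSMUSG00000022584, chromosome 15, 75108158 to 75111970) was the most abundant member and ranked 121 of 23552 genes by mean control FPKM. Its FPKM was 281 (replicate 3) and 545 (replicate 4) in the controls against 229 (replicate 2) and 269 (replicate 3) with SUV-OE, from 11151 to 25184 reads. Both SUV-OE libraries lay below both control libraries, as for 28.4% of all tested genes, and the gap between the groups was narrow beside the 1.94-fold difference between the control libraries. The log2 fold change was -0.65 (standard error, SE, 0.36, limma adjusted p = 0.370). It was -0.18 without control replicate 4 and -1.13 without control replicate 3. The authors' length divisor for Ly6c2 equals the 2740 bases of all its annotated exons together, which include a retained intron, while its longest coding transcript has 822 bases. Rescaled to that transcript, the FPKM would be 936 and 1816 in the controls against 765 and 895 with SUV-OE.

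Ly6c1 (ENSMUSG00000079018, chromosome 15, 75044018 to 75048830), the near-identical partner, had very few reads. It had an FPKM of 0.276, 0.530, 0.302 and 0.201 in control replicates 3 and 4 and SUV-OE replicates 2 and 3, from 9, 15, 9 and 6 reads. The groups overlapped, and the gene was below the minimum for the test. By limma-voom at a mean of at least 5 reads, its log2 fold change was -0.58 (SE 0.61, adjusted p = 0.604). The FPKM of Ly6c2 exceeded that of Ly6c1 by 1018, 1028, 758 and 1335 times in the same order of libraries. Given the shared stretches, some of the few Ly6c1 reads could equally fit Ly6c2, and their origin was not tested.

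Ly6e (ENSMUSG00000022587, chromosome 15, 74955051 to 74959905), which also acts in the cellular response to viruses, had the most even level of the 3 abundant members. Its FPKM was 88.7 and 105 in the controls against 91.4 and 92.6 with SUV-OE, from 6135 to 6731 reads. Both SUV-OE libraries lay between the control libraries. The log2 fold change was -0.07 (SE 0.15, limma adjusted p = 0.810), and its sign turned to 0.05 without control replicate 4 and to 0.14 under quantile normalization. Its rescaled FPKM, at the 2281 bases of the longest coding transcript against 3784 bases of all exons, would be 147 and 175 in the controls against 152 and 154 with SUV-OE.

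Ly6k (ENSMUSG00000044678, chromosome 15, 74796874 to 74799986), best known from testis, came after Ly6c2 and Ly6e in level and was the least even of the 3 between the control libraries. Its FPKM was 15.9 (replicate 3) and 60.6 (replicate 4) in the controls against 24.2 (replicate 2) and 31.0 (replicate 3) with SUV-OE, from 257 to 847 reads. Control replicate 4 was 3.80-fold above control replicate 3, and both SUV-OE libraries lay between them. The log2 fold change was -0.19 (SE 0.62, limma adjusted p = 0.889). It was 0.75 without control replicate 4 and -1.12 without control replicate 3, so its direction rests on which control library is kept. The span of the antisense gene Gm17189 covers that of Ly6k entirely on the opposite strand, and Gm17189 had an FPKM of 0 to 0.0631. The library kit does not mark strand, so reads from any shared exon could not be told apart. Whether exons of both genes overlap was not examined.

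Ly6a (ENSMUSG00000075602, chromosome 15, 74994877 to 74998031), the gene of Sca-1, was detected at a low level. Its FPKM was 0 (replicate 3) and 0.443 (replicate 4) in the controls against 1.31 (replicate 2) and 0.887 (replicate 3) with SUV-OE, from 0, 9, 28 and 19 reads. A count of 0 in control replicate 3 allows an FPKM of up to 0.128, the worth of 3 reads (the two-sided exact 95% Poisson limit is 0.157). The SUV-OE values were both above the controls, which held for Ly6a and Ly6d among the 5 tested members and for 25.4% of all tested genes. The log2 fold change was 0.80 (SE 0.25, limma unadjusted p = 0.0271, adjusted p = 0.188). It was 1.06 without control replicate 4 and 0.53 without control replicate 3. By limma-voom it was 3.47 (SE 1.13, adjusted p = 0.119), a value that depends on the small count added to the library with 0 reads. Summed over libraries, 47 SUV-OE reads against 9 control reads gave a ratio per depth of 5.34 (exact 95% interval 2.59 to 12.4, counting error only). Ly6a passed the minimum FPKM only through its level in SUV-OE.

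Ly6d (ENSMUSG00000034634, chromosome 15, 74762056 to 74763620) was nearly undetected in control. Its FPKM was 0 and 0.159 in control replicates 3 and 4 and 0.606 and 1.29 in SUV-OE replicates 2 and 3, from 0, 2, 8 and 17 reads. The SUV-OE values were both above the controls, and the SUV-OE libraries differed 2.12-fold from each other. The log2 fold change was 0.83 (SE 0.25, limma unadjusted p = 0.0207, adjusted p = 0.170). It was 0.94 without control replicate 4 and 0.72 without control replicate 3. By limma-voom at a mean of at least 5 reads it was 3.47 (SE 1.03, adjusted p = 0.101). Summed over libraries, 25 SUV-OE reads against 2 control reads gave a ratio per depth of 12.8, with an exact 95% interval of 3.19 to 111 that covers counting error only. Ly6d, too, passed the minimum FPKM only through SUV-OE.

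Ly6i (ENSMUSG00000022586, chromosome 15, 74979534 to 74983430) was at the limit of detection in all libraries. It had 1 read in control replicate 3, none in control replicate 4, and 1 in each SUV-OE library, an FPKM of 0 to 0.0487. A difference between the groups was not detectable at this depth.

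**Figure D2:**
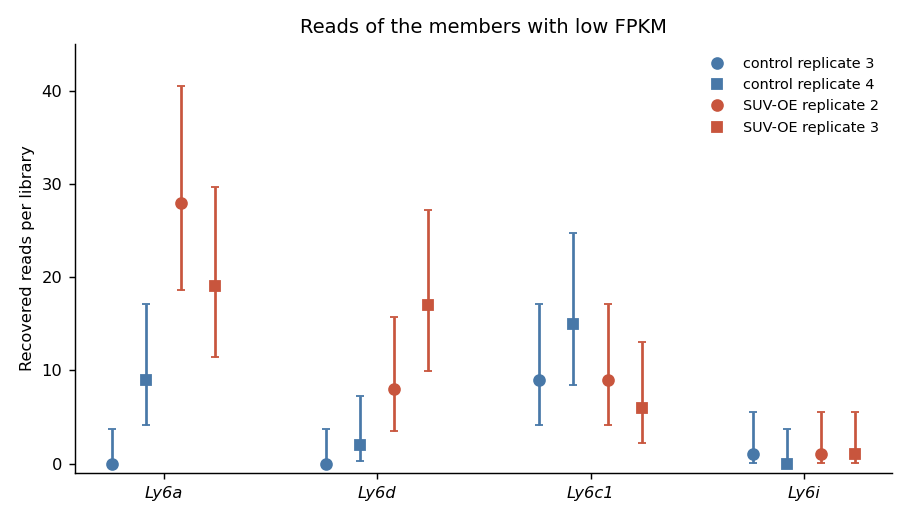
Recovered reads of Ly6a, Ly6d, Ly6c1 and Ly6i in each library, with exact 95% Poisson intervals that cover counting error only, blue for control and red for SUV-OE. Ly6a and Ly6d have 8 to 28 reads in SUV-OE and 0 to 9 in control, and no member shown exceeds 28 reads.

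Across the family the order of the FPKM levels was Ly6c2, Ly6e and Ly6k in all 4 libraries, and the ranges of these 3 genes over libraries did not overlap. Ly6a, Ly6d and Ly6c1 followed with overlapping ranges of 0 to 1.31, 0 to 1.29 and 0.201 to 0.530. Ly6i was below Ly6c1 in every library and overlapped Ly6a and Ly6d, which reach 0 in control replicate 3. Ly6c2 made up 66.1% to 76.5% of the summed FPKM of the 7 members, Ly6e 14.8% to 26.3% and Ly6k 4.13% to 8.51%. The sum was 386 and 712 in the controls against 347 and 395 with SUV-OE. The ratio of Ly6c2 to Ly6e was 3.17 and 5.17 in the controls against 2.51 and 2.90 with SUV-OE, so both SUV-OE libraries lay below both control libraries. The ratio of Ly6k to Ly6e was 0.180 and 0.574 in the controls against 0.265 and 0.335 with SUV-OE, and its groups overlapped.

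**Figure D3:**
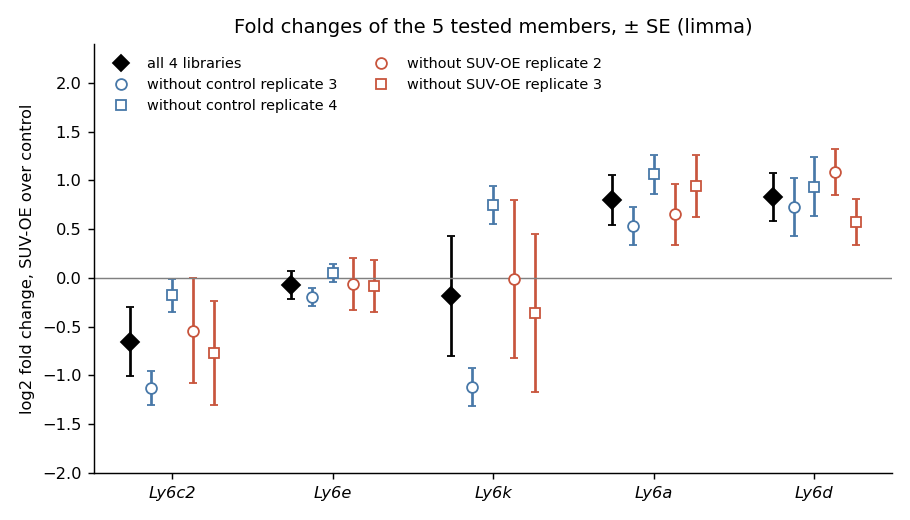
Log2 fold change of SUV-OE over control for the 5 tested members on the log2(FPKM + 1) scale, with limma standard errors, for all 4 libraries (black) and with each library left out (open symbols). Ly6k runs from -1.12 to 0.75 and Ly6c2 from -1.13 to -0.18 when a library is left out. The sign of Ly6a and Ly6d could not turn, since both SUV-OE values of each gene exceed both control values.

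The neighbourhood and the wider family were counted in the same fit. Within 500 kb of the members lay 23 other genes of the table, and 7 of them were tested. None of these 7 was a DEG by limma, while 5 had an unadjusted p under 0.05, as did 20.7% of all tested genes. Limma-voom at a mean of at least 10 reads called 2 as higher in SUV-OE, Ly6g and I830127L07Rik, against 2.86% of all tested genes. A positive log2 fold change was found in 47% of all tested genes. By limma 3 of the 7 neighbours had a positive and 4 a negative log2 fold change. Of the 4 negative ones, 1 reached the minimum FPKM only through control, so its sign was fixed by the filter. The log2 fold changes of the neighbours ran from -0.73 to 1.80. The highest was that of Ly6g, a granulocyte antigen and close relative of the members, with an FPKM of 0.655 and 2.64 in the controls against 7.72 and 7.40 with SUV-OE, from 12, 42, 129 and 124 reads. Its log2 fold change was 1.80 (SE 0.39, limma adjusted p = 0.110), while limma-voom at a mean of at least 10 reads gave 2.54 with an adjusted p of 0.0399. The pseudogene I830127L07Rik, between Ly6c2 and Ly6g and named after its values were seen, had an FPKM of 11.3 and 18.8 in the controls against 44.1 and 46.2 with SUV-OE. Its log2 fold change was 1.56 (SE 0.24, limma adjusted p = 0.0684), and limma-voom at a mean of at least 10 reads gave 1.65 with an adjusted p of 0.0136. Of 40 other genes with a Ly6/uPAR domain, 17 were in the table and 6 were tested (Plaur, Ly6g, Ly6g5b, Cd59a, Tex101 and Cd59b). Their log2 fold changes were 4 positive and 2 negative, and Cd59b, among the negative, reached the minimum FPKM only through control. None of the 6 was a DEG by limma, 1 had an unadjusted p under 0.05, and limma-voom called 1, Ly6g in both cases. Plaur, the urokinase receptor, was the most abundant of them, with an FPKM of 15.8 and 17.9 in the controls against 17.3 and 23.7 with SUV-OE. Of the genes that build and attach the GPI anchor, 26 were tested, 14 with a positive and 12 with a negative log2 fold change around a median of 0.02. None was a DEG by limma or limma-voom, and 1 had an unadjusted p under 0.05.

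**Figure D4:**
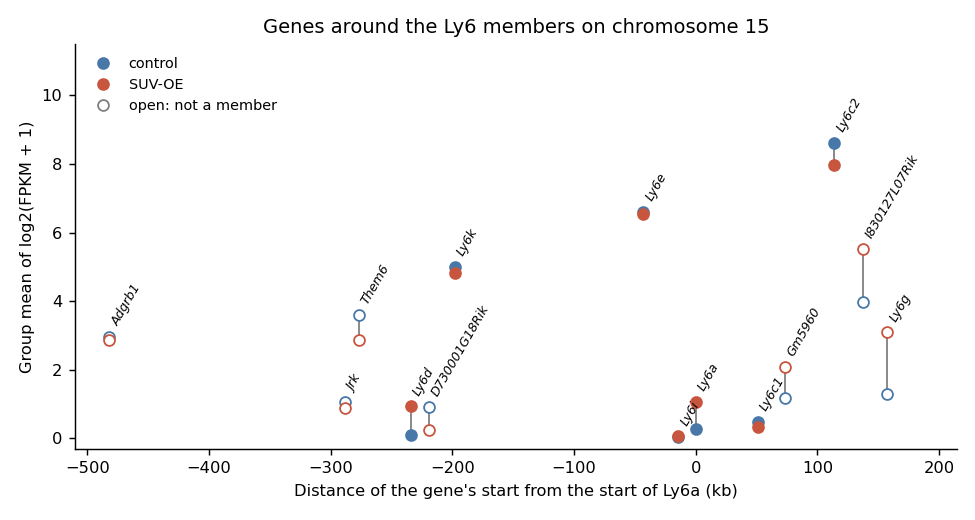
Group means of log2(FPKM + 1) for the members (filled) and the tested neighbouring genes (open) by distance of their start from that of Ly6a in kb, blue for control and red for SUV-OE. The widest gaps between the groups are those of Ly6g and I830127L07Rik, beyond the Ly6c2 end of the cluster.

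Markers of the cells in which the members serve as antigens were measured in the same libraries. The counts by limma-voom are those at a mean of at least 10 reads and higher in SUV-OE, among the genes tested by limma. Both SUV-OE values exceeded both controls in 25.4% of all tested genes, and 0.815% were DEGs higher in SUV-OE by limma and 2.86% by limma-voom. A positive log2 fold change was found in 47% of them and an unadjusted p under 0.05 in 20.7%. Of 12 tested neutrophil markers, 12 had both SUV-OE libraries above both controls, 3 were DEGs by limma (Ltf, Itgb2l and Padi4) and 9 by limma-voom. Their median log2 fold change was 1.75, and their summed FPKM was 768 and 2406 in the controls against 6709 and 8152 with SUV-OE. For B-lymphoid markers, beside Ly6d, the summed FPKM was 22.3 and 31.3 in the controls against 52.5 and 125 with SUV-OE. Of the 13 tested, 8 reached the minimum FPKM only through SUV-OE, so the 12 positive log2 fold changes, their median of 1.83, the 6 calls by limma-voom and the 1 by limma are no independent sign of direction. The limma call was Vpreb2, part of the surrogate light chain, with an FPKM of 0 in both controls against 1.97 and 3.28 with SUV-OE. As with Ly6d, SUV-OE replicate 3 held the highest summed level of B-lymphoid markers. For monocyte markers, beside Ly6c2, 8 of 12 tested genes had a positive log2 fold change with a median of 0.53, the largest absolute values being those of Klf4 (-1.20), C1qa (0.93) and Ccr2 (0.89), and the summed FPKM was 106 and 120 in the controls against 157 and 158 with SUV-OE. None of the 12 was a DEG by limma, 7 had an unadjusted p under 0.05, and limma-voom called 2. For interferon-induced genes, beside Ly6e and Ly6a, 26 of 29 tested genes had a positive log2 fold change with a median of 0.47, the highest being Gbp2 (1.40), Isg15 (1.13) and Rsad2 (1.09). None of the 29 was a DEG by limma, 17 had an unadjusted p under 0.05, and limma-voom called 5. For stem and progenitor markers, beside Ly6a, 7 of 9 tested genes had a positive log2 fold change with a median of 0.39, Hlf was a DEG by limma at 1.34, and limma-voom called 2. Of these 9, 1 reached the minimum FPKM only through SUV-OE (Il7r, which limma-voom called), as did 1 of the 29 interferon-induced genes, and their sign was fixed by the filter. No gene of the whole table was at 0 in every library, so the presence of a listed marker there is no sign of its cell type. The part that cells of these types had in the values of the members was not tested.

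The remaining lists were read against the same 47% of positive values. Of the 10 myeloid genes of the leukemic program, 3 had a positive and 7 a negative log2 fold change, and Irf8 was a DEG at 1.01. Interferon receptors and signalling genes had 6 positive and 2 negative values among 8 tested. Plasmacytoid dendritic cell markers had 4 positive values among 5 tested and T and NK cell markers 2 among 3. Of these genes, 2 and 1 reached the minimum FPKM only through SUV-OE, so their sign was fixed by the filter. The only negative dendritic cell marker reached it only through control, with a mean FPKM of 0.855 against 0.497 with SUV-OE. Of the 14 listed endothelial markers only 4 were tested, all with a positive value, and Pecam1 was a DEG at 1.71. Of the 10 listed stromal markers 1 was tested, with a value of -0.22.

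The genes most like Ly6a and Ly6c2 in profile were found by the Euclidean distance of log2(FPKM + 1) after subtraction of the gene mean, over 4 libraries, which is too few to tell profiles apart firmly. For Ly6a these were 1700020D05Rik (distance 0.0462), Gm7972 (0.104), Lilra6 (0.113), Gm12356 (0.115) and Gm8738 (0.117). For Ly6c2 they were Clec4a2 (0.0890), Gm27028 (0.0962), Gm7846 (0.128), Gm10029 (0.149) and Smim4 (0.170). Clec4a2, a lectin receptor of myeloid cells, had an FPKM of 47.4 and 85.2 in the controls against 37.0 and 42.5 with SUV-OE, with control replicate 4 the highest library, as for Ly6c2.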

How the data were processed

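Gene expression was measured in leukemic c-Kit+ bone marrow cells in 2 control and 2 SUV-OE libraries. According to the methods, the authors prepared TruSeq v2 libraries, aligned reads to mm10 with TopHat2 and computed FPKM with Cufflinks, and the deposited table gives the FPKM of 23552 genes in each library. The submitters' processing notes name CASAVA 1.8 and TopHat2. The annotation release and the handling of multiply aligned reads are not given in the sources used here. The study called DEGs with DESeq2, which was not run here. The deposited unit is FPKM, so no count test was the main test.

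The groups were tested by limma 3.58.1 (R 4.3.3) on log2(FPKM + 1), with an intensity trend and group as the only term, for genes whose FPKM averaged 0.5 or more. At the exon lengths of GENCODE M21, the FPKM of 78.5% of genes, the 7 members among them, corresponded to whole reads (tolerance 0.01). For the others, another length that made all values of the gene whole was searched for, so their reads rest on a fitted length. Together this gave reads for all but 12 genes. These reads entered limma-voom and exact Poisson intervals. Both fits were tested on simulated data.

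The members and gene lists were chosen with earlier results of these data known. Named genes were the members, the tested genes with a Ly6/uPAR domain, DEGs of the lists or otherwise at most their 3 largest changes, not all of which are reported, the 5 nearest profiles of Ly6a and Ly6c2, and Suv39h1. Kit, I830127L07Rik and Gm17189 were named outside this rule. Alternatives were a pseudocount of 0.1, other filters, quantile and median-of-ratios scaling, no or a robust trend, other thresholds, limma-voom and leaving out each library. Limma-voom at 5 reads was chosen after seeing the data, as was the coding transcript used for sequence identity.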

Additional observations from a re-analysis of the deposited data

How the results depend on the processing

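No paired analysis was possible because control and SUV-OE libraries have just 1 replicate number in common. No member was a DEG under any alternative run. Fits that call 0 genes at all say nothing about that. Other filters and trends leave a fold change as it is, and the sign of Ly6a, Ly6d and Ly6c2 cannot turn when 1 library is left out, so the 59 of 62 values of single members that kept their direction are no measure of stability. The 3 that turned were the log2 fold change of Ly6e under quantile normalization (0.14) and without control replicate 4 (0.051) and that of Ly6k without control replicate 4 (0.75). With each library left out, the log2 fold changes ranged from 0.53 to 1.06 for Ly6a, from 0.58 to 1.09 for Ly6d, from -1.13 to -0.18 for Ly6c2, from -0.20 to 0.051 for Ly6e and from -1.12 to 0.75 for Ly6k, and the median of the members from -0.20 to 0.75. The median of the members was 0.14 under quantile normalization. A pseudocount of 0.1 gave 2.34 for Ly6a and 2.62 for Ly6d, where low values weigh more. The count of DEGs over all tested genes was 168. It was 0 without a filter on low values, 673 by limma-voom at a mean of at least 10 reads, 643 at 5 reads and 342 at an adjusted p under 0.1, and 0 in each fit that left out 1 library, where fewer samples remain. A lone library left in a group is assumed there to vary like the other group. For the other differences the cause was not tested. Depth limits Ly6a, Ly6c1, Ly6d and Ly6i, each at no more than 28 reads per library.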
